A study of Mus musculus with 2 samples.

Results

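The Hsd17b genes encode hydroxysteroid dehydrogenases, named for enzymes that switch a hydroxyl and a keto group on the D ring of steroids. Their members were found by matching the Ensembl identifiers of 10 gene symbols, and all 10 had a row in the gene table of both libraries, out of 43346 Ensembl genes. Total RNA had been sequenced from adrenal glands of newborn mice (strain B6NCrl, postnatal day 0), with 1 library for each of 2 pups, made from the 2 adrenals of that pup, starting with 10 ng and with spike-in RNAs present. Both pups carry the same number for the pregnant animal in the labels, and their sex was not collected. Both belong to 1 group, without treatment or control, so the design gives the level of each gene and how far the pups lie apart, and no p-value.

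Reduction at the D ring makes the active sex steroids estradiol and testosterone, and oxidation turns them back into weaker forms. Hsd17b1 and Hsd17b3 are known for the reducing direction in ovary and testis, and Hsd17b2 for the oxidizing direction. Other members carry the family name but work mainly on lipids: Hsd17b4 in peroxisomes, Hsd17b10 in mitochondria, Hsd17b12 in the endoplasmic reticulum, and Hsd17b11 and Hsd17b13 on lipid droplets. The mouse adrenal cortex makes mainly corticosterone and is known for little androgen synthesis after birth.

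The library of pup 1 held 41504306 estimated counts and that of pup 2 held 40799446. The labelled tissue was checked by its markers: all 8 genes of the steroidogenic cortex (summed 6639 TPM in pup 1 and 17788 TPM in pup 2) and all 8 chromaffin genes (1586 and 3585 TPM) reached TPM 1 in both pups. TPM is the share of a gene among all transcripts, corrected for length, and is the scale on which genes are set side by side here. Markers of other tissues were also present, with 10 of 10 hepatocyte genes at TPM 1 in both pups (2966 and 2281 TPM summed), 2 of 8 stomach genes (147.2 and 7.75 TPM), 1 of 7 adipocyte genes (6.06 and 37.41 TPM), 4 of 6 skeletal muscle genes (71.87 and 290.5 TPM) and 0 of 8 kidney genes (2.93 and 14.09 TPM). Of the stomach genes Gkn1 and Muc5ac, of the adipocyte genes Lep, of the muscle genes Myh1 and of the kidney genes Umod were at 0 counts in 1 pup. All genes for leukocytes (7, with 1144 and 700.6 TPM summed), endothelium (6, with 142 and 264.7 TPM), fibroblasts and capsule (7, with 1827 and 1627 TPM) and sympathetic neurons (6, with 1144 and 368.3 TPM) reached TPM 1 in both pups. In such bulk libraries, fewer cells of a type and less RNA per cell cannot be told apart.

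Among the 10 genes, the lipid and mitochondrial members carried almost all of the summed TPM, and the sex steroid reductases Hsd17b1 and Hsd17b3 almost none. Hsd17b7 (5.8 TPM in pup 1 and 6.82 TPM in pup 2) and H2-Ke6, also called Hsd17b8 (70.4 and 124.25 TPM), are outside the 10. Hsd17b10, Hsd17b12 and Hsd17b4 together held 92.1% of the summed TPM of the 10 genes in pup 1 and 93.2% in pup 2, where the sums were 247 and 347.3 TPM. The levels spanned from 162 TPM for Hsd17b10 to 0.015 TPM for Hsd17b3, as means over the pups. TPM 1 was reached in both pups by 6 of the 10 members, against 60.5% of 21474 protein-coding genes. The 10 genes were thus expressed about as often as protein-coding genes at large.

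**Figure D1:**
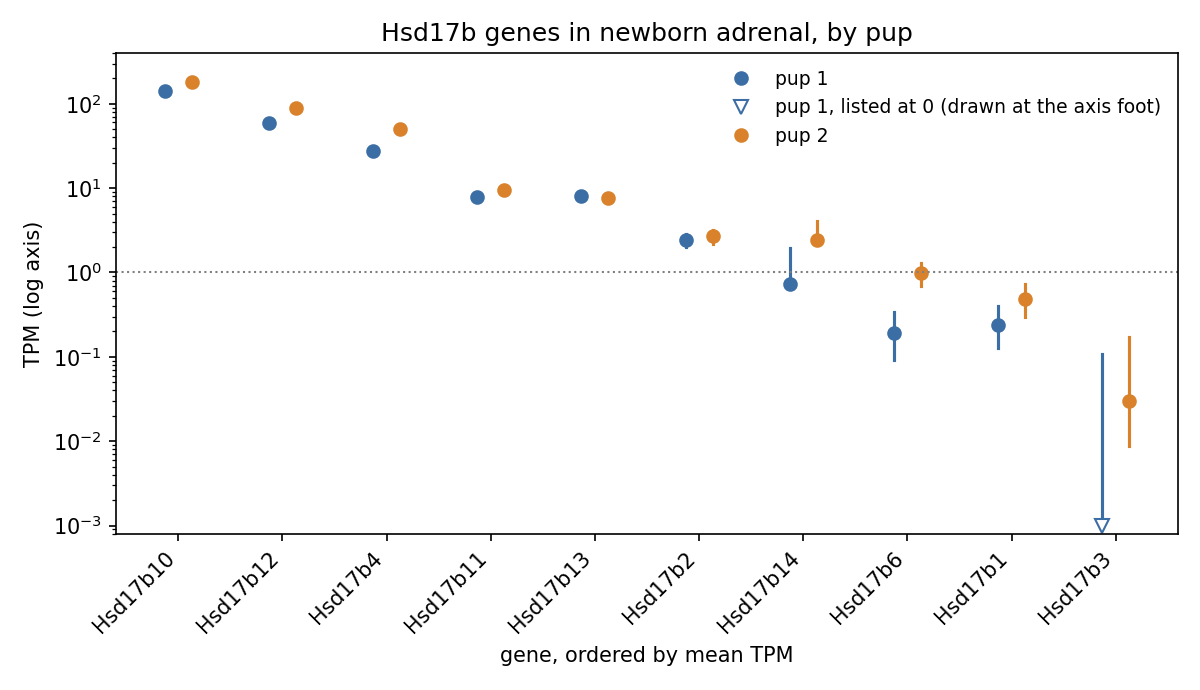
TPM of each Hsd17b gene on a log axis, ordered by mean; points are the 2 pups, vertical lines the quantifier's interval for TPM in that pup, the dotted line TPM 1. The 3 genes on the left lie at 27.46 TPM or more in both pups, and Hsd17b3, listed at 0 in pup 1, lies apart at the right.

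Hsd17b10 encodes a mitochondrial dehydrogenase of isoleucine breakdown that is also a subunit of mitochondrial ribonuclease P, which cuts tRNAs out of the long mitochondrial transcripts. It lies on chromosome X (152001845 to 152004442, plus strand, mm10, ENSMUSG00000025260.6). It stood at 141.2 TPM in pup 1 and at 183.2 TPM in pup 2, or 162 ± 29.7 TPM (SD, n = 2), and ranked 760 among protein-coding genes by mean TPM. Its intervals from the quantifier (135 to 143 and 175 to 185 TPM) did not overlap, although its counts were level (4918 and 5181).

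Hsd17b12 encodes the ketoacyl reductase of the enzyme cycle that lengthens fatty acids in the endoplasmic reticulum, and it can also reduce estrone. It lies on chromosome 2 (94032689 to 94157964, minus strand, ENSMUSG00000027195.6). It stood at 58.74 TPM in pup 1 and at 89.68 TPM in pup 2, or 74.2 ± 21.9 TPM (SD, n = 2), with 4062 and 5155 counts. Its lower pup lay above the higher pup of Hsd17b4, so these neighbours in the order did not overlap.

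Hsd17b4 encodes the multifunctional enzyme of peroxisomes that hydrates and oxidizes very long and branched acyl chains and bile acid precursors. It lies on chromosome 18 (50128201 to 50196269, plus strand, ENSMUSG00000024507.6). It stood at 27.46 TPM in pup 1 and at 50.74 TPM in pup 2, or 39.1 ± 16.5 TPM (SD, n = 2), with 2846 and 4285 counts. The pseudogene Cd63-ps lies inside it on the same strand and had a row of its own, with 283.78 and 246.24 counts.

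Hsd17b11 and Hsd17b13, paralogs whose proteins sit on lipid droplets, are neighbours on chromosome 5 and came next at almost the same level. Hsd17b11 (103989762 to 104021919, minus strand, ENSMUSG00000029311.12), which can oxidize androgen metabolites, stood at 7.8 TPM in pup 1 and at 9.46 TPM in pup 2, with 544 and 536 counts. Hsd17b13 (103955440 to 103977410, minus strand, ENSMUSG00000034528.11), known chiefly from hepatocytes, stood at 8.17 and 7.56 TPM, with 399 and 300 counts. Their order differed between the pups, so the levels of the pair did not differ beyond their spread (8.63 ± 1.17 and 7.87 ± 0.43 TPM, SD, n = 2). The 2 genes are 12351 bases apart, and the posterior standard deviation of the gene count was 0 for both in both pups, so the quantifier divided no reads between them and another gene.

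Hsd17b2, which oxidizes estradiol and testosterone, reached TPM 1 in both pups, unlike Hsd17b1 and Hsd17b3. It lies on chromosome 8 (117701904 to 117759027, plus strand, ENSMUSG00000031844.7) and stood at 2.41 TPM in pup 1 and at 2.71 TPM in pup 2, or 2.56 ± 0.21 TPM (SD, n = 2). That rests on 115 and 105 counts. An antisense gene, Gm31774, and Gm45776 on the same strand overlap Hsd17b2 in the later annotation but had no rows of their own in the tables, and strand handling is not given, so reads of these genes cannot be told apart.

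Hsd17b14, a cytosolic member, crossed TPM 1 in 1 pup only. It lies on chromosome 7 (45554893 to 45567752, plus strand, ENSMUSG00000030825.13) and stood at 0.74 TPM in pup 1 and at 2.42 TPM in pup 2, from 30 and 76 counts. The 0.74 TPM lies just below the quantifier's own interval for that pup (0.745 to 1.96 TPM), and the posterior mean was 1.32 TPM in pup 1 and 3.1 TPM in pup 2. Pup 2 was higher by both measures, and the pups overlapped with Hsd17b2 above it in the order and Hsd17b6 below it.

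Hsd17b6 encodes an oxidoreductase of androgen metabolites close to the retinol dehydrogenases. The gene is on chromosome 10 (127990936 to 128007611, minus strand, ENSMUSG00000025396.6), near Rdh1, Rdh7, Rdh9, Rdh16, Rdh19 and Sdr9c7. It stood at 0.19 TPM in pup 1 and at 0.98 TPM in pup 2, from 9.98 and 41.53 estimated counts. It was the only member whose gene count had a posterior standard deviation above 0 (0.98 and 1.77 reads), so the quantifier shared a few of its reads with another gene. Hsd17b1, the estrone reductase of granulosa cells, lies on chromosome 11 (101078411 to 101080527, plus strand, ENSMUSG00000019301.5) and stood at 0.24 and 0.49 TPM, from 12 and 20 counts.

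Hsd17b3, which makes testosterone from androstenedione in Leydig cells, was at the limit of detection. It lies on chromosome 13 (64058266 to 64089230, minus strand, ENSMUSG00000033122.9), and no read was counted in pup 1 and 1 read in pup 2. A count of 0 allows up to 3 counts, or 0.067 TPM in pup 1, and the 1 read of pup 2 lay under the same limit there (0.0887 TPM), so no fold is given. Such limits cover counting error only. Of 8 genes fixed as gonad markers, 2 reached TPM 1 in both pups, Dhh and Inhbb, and the list summed to 5.54 TPM in pup 1 and 6.22 TPM in pup 2. Cyp19a1 was at 0 in both and Fshr at 0 in pup 2, and Insl3, the Leydig cell hormone gene, had 9.53 and 25.98 counts.

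In the stretch before the start site, Hsd17b10, Hsd17b11 and Hsd17b12 have more CG dinucleotides than the median gene window and Hsd17b3, Hsd17b6 and Hsd17b13 have fewer. Such dinucleotides are known to cluster at the starts of broadly expressed genes. RefSeq windows on GRCm38.p6, the same build as mm10, matched 6 of the 10 members. In the 250 bases before the RefSeq start, Hsd17b12 (chr2:94157910-94158159, minus strand) has 20 CG, Hsd17b11 (chr5:104021797-104022046, minus strand) 13 and Hsd17b10 (chrX:152001646-152001895, plus strand) 12. Hsd17b13 (chr5:103977389-103977638, minus strand) has 3, Hsd17b3 (chr13:64089202-64089451, minus strand) 2, and the 2 windows of Hsd17b6 have 1 and 0. The 4 below are shown because they hold the highest counts and the neighbours of chromosome 5, which were alike in level but not in CG. Each reads 5′ to 3′ along the strand of its gene, with every CG in capitals.
Hsd17b12: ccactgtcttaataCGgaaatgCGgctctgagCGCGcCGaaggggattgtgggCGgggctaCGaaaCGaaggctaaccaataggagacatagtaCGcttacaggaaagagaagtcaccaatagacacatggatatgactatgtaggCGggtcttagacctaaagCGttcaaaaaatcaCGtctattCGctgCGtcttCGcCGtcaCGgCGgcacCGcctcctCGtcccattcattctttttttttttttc
Hsd17b10: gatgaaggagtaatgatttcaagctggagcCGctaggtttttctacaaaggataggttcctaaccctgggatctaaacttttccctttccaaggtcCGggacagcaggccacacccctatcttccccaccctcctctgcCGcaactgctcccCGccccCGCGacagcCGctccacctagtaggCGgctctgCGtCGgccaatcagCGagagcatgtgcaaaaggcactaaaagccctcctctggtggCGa
Hsd17b11: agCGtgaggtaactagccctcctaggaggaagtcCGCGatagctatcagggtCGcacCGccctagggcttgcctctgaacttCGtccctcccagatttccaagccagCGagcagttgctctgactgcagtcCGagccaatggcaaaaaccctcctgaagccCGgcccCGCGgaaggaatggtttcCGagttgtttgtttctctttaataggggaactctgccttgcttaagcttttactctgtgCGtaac
Hsd17b13: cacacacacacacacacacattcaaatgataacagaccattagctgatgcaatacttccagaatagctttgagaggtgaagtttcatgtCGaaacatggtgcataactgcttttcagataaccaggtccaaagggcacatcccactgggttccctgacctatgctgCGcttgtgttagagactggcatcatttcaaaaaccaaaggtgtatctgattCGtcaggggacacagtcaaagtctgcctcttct

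Over all 32851 windows, the median was 6 CG, the same on either strand because CG reads alike on both. A count at least as high was held by 17.9% of windows for Hsd17b12, 31.5% for Hsd17b11, 33.5% for Hsd17b10 and 71% for Hsd17b13. Among protein-coding genes with a window, 84% of 10365 with more CG than the median window reached TPM 1 in both pups, and 24.6% of 5952 with no more than the median. The median of their mean TPM was 10.6 and 0.045. Hsd17b10, Hsd17b11 and Hsd17b12 followed this division, as did Hsd17b6 and Hsd17b3 at the low end, whereas Hsd17b13 reached 7.56 TPM or more in both pups with 3 CG. With 6 members this is a description. The windows of Hsd17b6 end at starts 6933 bases or less upstream of the one transcript quantified for it, so they need not be where its reads began. For Hsd17b10, Hsd17b11, Hsd17b12 and Hsd17b13, the leading transcript begins inside the window, at 152001845, 104021919, 94157964 and 103977410. These 4 windows therefore hold some bases of the transcript itself, most of all for Hsd17b11.

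**Figure D2:**
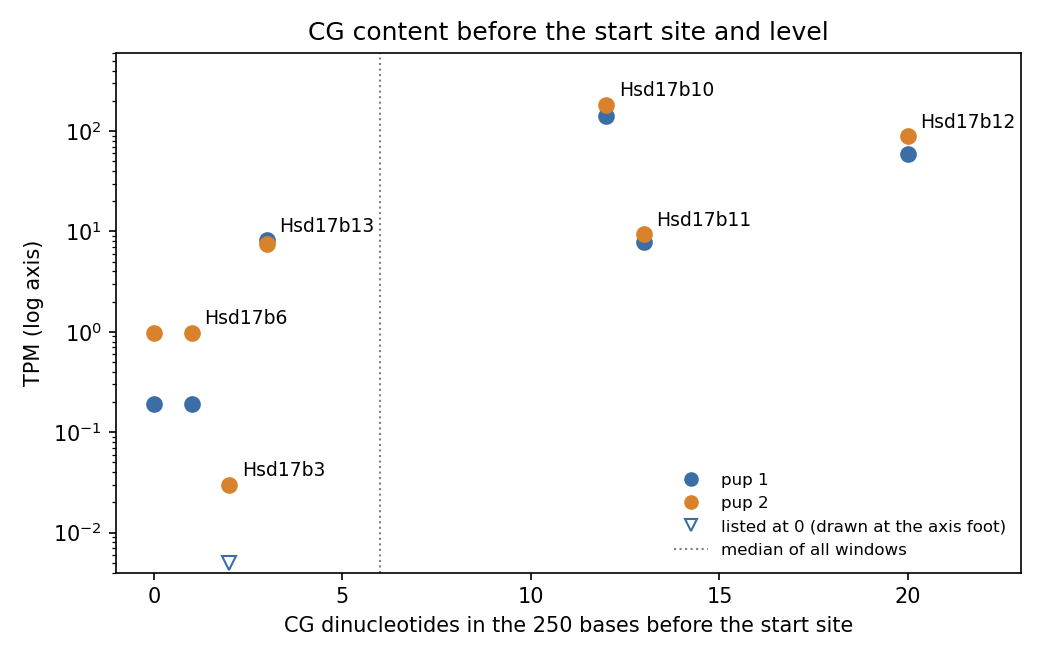
TPM on a log axis against the number of CG dinucleotides in the 250 bases before the start site, for the 6 Hsd17b genes with a RefSeq window; points are pups, Hsd17b6 has 2 windows, and the dotted line is the median of all windows. Hsd17b10, Hsd17b11 and Hsd17b12 lie to the right with 12 to 20 CG, and Hsd17b13 is the highest of the genes on the left.

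Among the 9 members compared, the pups differed most for the scarce Hsd17b6 and Hsd17b14, and Hsd17b4 differed more than the scarcer Hsd17b2 and Hsd17b11. For differences, counts were scaled by TMM, a method that sets the bulk of genes level between libraries, and are given as the log2 ratio of pup 2 over pup 1 for the 9 members whose counts averaged 10 or more, a level met by 73.5% of protein-coding genes. Of these, 5 were higher in pup 2 and 4 in pup 1, against 50.1% of 18670 genes higher in pup 2. By deposited TPM, 8 of the 9 were higher in pup 2, against 72.2% of genes, since Hsd17b2, Hsd17b10 and Hsd17b11 change sign. The median log2 ratio was 0.26 over the 9 members and 0.00 over all genes, and members ran from -0.50 to 1.93. At a mean count of at least 100 the median of the members was -0.058.

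**Figure D3:**
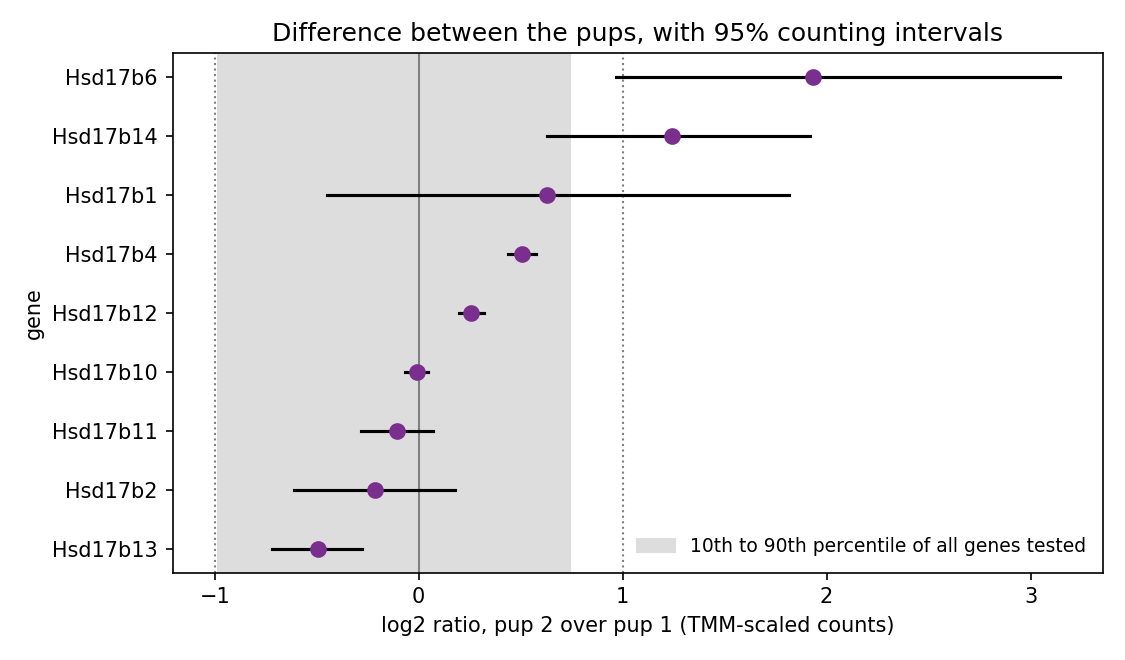
Log2 ratio of pup 2 over pup 1 from TMM-scaled counts for the 9 Hsd17b genes whose counts averaged 10 or more; points are ratios, lines exact binomial 95% counting intervals, dotted lines 2-fold, and the grey band spans all genes from -0.99 to 0.74 (10th to 90th percentile). Hsd17b6 and Hsd17b14 lie past 2-fold and have wide intervals.

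Hsd17b6 and Hsd17b14 lay over 2-fold apart, both higher in pup 2, which makes 2 of 9 members against 15.8% of all genes in either direction, 6.03% higher in pup 2 and 9.75% higher in pup 1. Hsd17b6, with 10 and 42 counts, had a log2 ratio of 1.93 with a 95% counting interval of 0.97 to 3.15. Hsd17b14, with 30 and 76 counts, had a log2 ratio of 1.24 (0.63 to 1.92). Both intervals lie above 0 yet begin below 2-fold, and neither gene has a mean count of 100, a minimum at which 0 members are over 2-fold apart against 9.13% of genes. The 15.8% is not matched for count, and genes with a mean count under 100 pass 2-fold more often than those above. Each pup is 1 library, so these differences have no replicate check.

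Hsd17b4 and Hsd17b12 were also higher in pup 2, by less than 2-fold and with narrow intervals. Hsd17b4 had a log2 ratio of 0.51 (0.44 to 0.57) and Hsd17b12 of 0.26 (0.20 to 0.32). The 8 markers of the steroidogenic cortex were all higher in pup 2, from 0.63 to 1.46 around a median of 1.22 on the same scale, so both genes differed less than every cortex marker. The part of cortex content in their ratios was not tested.

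Hsd17b13 was the only member whose interval lay below 0, with a log2 ratio of -0.50 (-0.72 to -0.28). All 10 hepatocyte markers were also higher in pup 1, from -1.28 to -0.61 around a median of -0.82, and none was at 0. Albumin (Alb) had 413.94 and 305.51 TPM, beside 8.17 and 7.56 TPM of Hsd17b13. The direction is not particular to hepatocyte markers. All 7 fibroblast and capsule markers were also higher in pup 1 (-1.55 to -0.36). So were all 6 of sympathetic neurons (median -1.99) and all 7 stomach genes whose counts averaged 10 or more (median -4.83). All 8 cortex markers and all 6 of skeletal muscle were higher in pup 2. The part of liver RNA, or of RNA from these other sources, in the Hsd17b13 reads was not tested. Its droplet neighbour Hsd17b11 had a log2 ratio of -0.11 (-0.28 to 0.07).

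The remaining 3 members had intervals that span 0. Hsd17b10 was level by scaled counts, with a log2 ratio of -0.01 (-0.07 to 0.05), while its TPM ratio was 0.38 on the log2 scale. Across genes, the log2 ratio by TPM exceeded that by scaled counts by 0.385 (median), and the gap of Hsd17b10 is of that size. Hsd17b2 had a log2 ratio of -0.22 (-0.61 to 0.18) and Hsd17b1 of 0.63 (-0.45 to 1.82), so a difference in either was not detectable at these counts. Directions are relative to the bulk of genes: scaling by the spike-in counts (5717 in pup 1 and 1022 in pup 2) brings the median log2 ratio over all genes to 2.56 and puts all 9 members higher in pup 2.

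Most members were read as 1 transcript. Hsd17b1, Hsd17b2 and Hsd17b6 have 1 transcript in the tables. The isoform percent, the share of the TPM of a gene held by a transcript, was 99.5% ± 0.198 for Hsd17b4-201 (24 exons, SD, n = 2), 98.2% ± 1.28 for Hsd17b10-201 (6 exons) and 99.5% ± 0.0071 for Hsd17b11-201 (7 exons). All 3 are protein-coding. For Hsd17b13, all of the TPM was assigned to Hsd17b13-202 (7 exons, ending at 103963461), and Hsd17b13-201, whose last exon reaches 103955440, was listed at 0 in both pups. The posterior mean gave Hsd17b13-202 92.71% in pup 1 and 89.88% in pup 2, with most of the rest on Hsd17b13-203 (6.94% and 9.67%).

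Hsd17b12 was the abundant member with a second transcript above 5%. The full-length coding Hsd17b12-201 (11 exons) held 86.26% in pup 1 and 92.48% in pup 2, and the noncoding Hsd17b12-204 (6 exons) held 12% and 5.01%. In counts, Hsd17b12-204 was assigned 350.02 and 181.42, and Hsd17b12-201 was assigned 3686.01 and 4900.93. All 1330 bases of Hsd17b12-204 lie within exons of Hsd17b12-201, toward its 3′ end, so no base of its own tells them apart. The posterior standard deviation of its count was 72.77 reads in pup 1 and 88.98 reads in pup 2. Its TPM intervals from the quantifier (4.02 to 9.51 and 0.18 to 8.41) overlapped, so a difference between the pups in Hsd17b12-204 did not exceed this uncertainty.

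Hsd17b14 was divided among several transcripts on few reads. Of 7 transcripts, ENSMUST00000107752.5 (Hsd17b14-201, 9 exons, protein-coding) held 37.72% in pup 1 and 44.05% in pup 2, on 14.56 and 45.53 counts. ENSMUST00000141247.5 held 36.07% and 25.61%, on 13.02 and 24.74 counts. ENSMUST00000147958.4 held 26.21% in pup 1 on 2.42 counts and was at 0 in pup 2. ENSMUST00000150887.4 held 27.01% in pup 2 on 3.88 counts and was at 0 in pup 1. The last 2 are 410 and 280 bases long, so a few reads carry a large share of a TPM that is corrected for length. The single read of Hsd17b3 in pup 2 was assigned to Hsd17b3-201, which makes its 100% there uninformative.

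**Figure D4:**
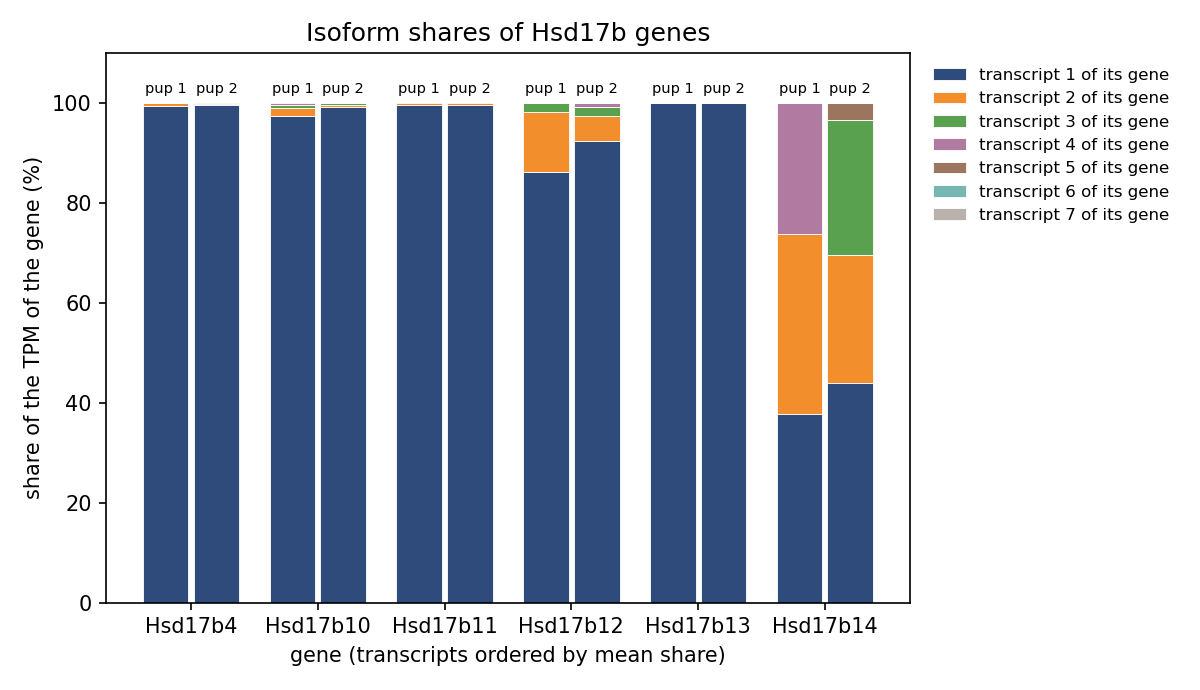
Share of the TPM of each gene held by its transcripts, in percent, for 6 Hsd17b genes with more than 1 transcript; left bars are pup 1, right bars pup 2, and colours rank transcripts within a gene by mean share. Hsd17b12 shows a second transcript at 12% and 5.01%, and the shares of Hsd17b14 differ between the pups on 30 and 76 counts.

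The genes listed around each member are given as counts and were not compared with other genes by a test. The shares to read them against are 60.5% of protein-coding genes at TPM 1 in both pups, 50.1% of genes higher in pup 2 and 15.8% over 2-fold apart. For Hsd17b10, all 10 listed genes of mitochondrial tRNA processing and isoleucine breakdown reached TPM 1 in both pups. Echs1 reached 191.63 TPM (pup 1) and 341.68 TPM (pup 2), Acat1 at 107.3 and 129.65 TPM, Bckdha at 53.44 and 97.03 TPM and Bcat2 at 39.1 and 69.67 TPM. These 4 encode enzymes of branched-chain amino acid breakdown. Of the 10, 8 were higher in pup 2, the median of the log2 ratios was 0.53, and 1 was over 2-fold apart, Dbt (1.07), a subunit of the branched-chain ketoacid dehydrogenase. Hsd17b10 itself was level. Its partners in ribonuclease P, named outside the rule, had log2 ratios of -0.32 (Trmt10c) and 0.58 (1110008L16Rik, the gene of the catalytic subunit).

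For Hsd17b12, 10 of 12 genes of fatty acid elongation reached TPM 1 in both pups. Tecr, the reductase of the last step of the cycle, had 271.35 TPM (pup 1) and 378.99 TPM (pup 2). The dehydratase genes Hacd3 (74.5 and 194.35 TPM) and Hacd1 (112.99 and 111.27 TPM) and the elongase gene Elovl5 (55.65 and 132.87 TPM) followed. Among the 11 genes that met the minimum, 7 were higher in pup 1, the median of the log2 ratios was -0.20, and 2 elongase genes were over 2-fold higher in pup 1, Elovl4 (-1.23) and Elovl7 (-1.22). Hacd3 lay just under 2-fold in the other direction (1.00), so the list had no common direction to set beside the 0.26 of Hsd17b12.

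For Hsd17b4, all 15 genes of peroxisomal fatty acid oxidation reached TPM 1 in both pups, and none was over 2-fold apart. Scp2, a thiolase and sterol carrier, had 322.29 TPM (pup 1) and 388.07 TPM (pup 2). The thiolase gene Acaa1a (61.28 and 94.5 TPM) and the acyl transferase gene Crot (40.24 and 55.72 TPM) came next. By scaled counts 9 of the 15 were higher in pup 2, and the log2 ratios ran from -0.99 to 0.86 around a median of 0.08. Hsd17b4, at 0.51, lay within that range.

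For Hsd17b11 and Hsd17b13, 14 of 18 lipid droplet genes reached TPM 1 in both pups. The coat protein genes Plin2 (101.79 TPM in pup 1 and 200.54 TPM in pup 2) and Plin3 (66.48 and 95.4 TPM) led, followed by Bscl2 (34 and 58.8 TPM), which encodes seipin, and the lipase gene Pnpla2 (24.01 and 61.81 TPM). The list had 13 of 18 genes higher in pup 2 and a median log2 ratio of 0.61, with Plin1 (1.52) and Lipe (1.22) over 2-fold higher. Hsd17b11 (-0.11) and Hsd17b13 (-0.50) lay below that median, within the range of the list from -0.85 to 1.52. Plin1 is also an adipocyte marker, and 5 of the 6 adipocyte genes that met the minimum were higher in pup 2, with Adipoq at 0.1 and 14.94 TPM. All 8 cortex markers (median 1.22) and all 6 of skeletal muscle (median 1.79) were higher in pup 2 too, whereas all 10 hepatocyte markers were higher in pup 1. The part of fat tissue, cortex or muscle in the droplet list was not tested.

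For the steroid reactions, 9 of 14 matched genes of sex steroid synthesis, inactivation and reception reached TPM 1 in both pups, near the share of protein-coding genes, and Sts had no match. H2-Ke6, which encodes the enzyme also called Hsd17b8 and works in mitochondrial fatty acid synthesis, led with 70.4 and 124.25 TPM. Srd5a3 (18.2 and 27.76 TPM) and Srd5a1 (6.18 and 12.91 TPM), which carry the name of steroid reductases, and the aldo-keto reductase gene Akr1c14 (16.39 and 8.06 TPM) followed. Among the 11 genes that met the minimum, 7 were higher in pup 2, the median of the log2 ratios was 0.12, and Akr1c14 (-1.41) and the estrogen sulfotransferase gene Sult1e1 (-1.58) were over 2-fold higher in pup 1. Cyp17a1, whose product feeds Hsd17b1 and Hsd17b3 with androgens, had 19 and 22 counts, and Cyp19a1, the aromatase gene, had 0 in both pups. Hsd17b7, a member of the wider family that works in cholesterol synthesis and is named outside the rule, had 5.8 and 6.82 TPM.

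For Hsd17b6, 6 of 12 retinol dehydrogenase genes reached TPM 1 in both pups. Rdh14 (61.22 TPM in pup 1 and 65.15 TPM in pup 2), Rdh5 (28.38 and 24.63 TPM), Rdh11 (10.96 and 14.54 TPM) and Rdh13 (7.7 and 11.46 TPM) led them. Of the 10 that met the minimum, 5 were higher in either pup, and the log2 ratios had a median of -0.14. Over 2-fold apart, on few reads and named after their values were seen, were Rdh1, higher in pup 2 like Hsd17b6 (38.72 and 98.99 counts), and Sdr9c7, higher in pup 1 (26 and 3 counts). Rdh19 was at 0 in both pups.

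**Figure D5:**
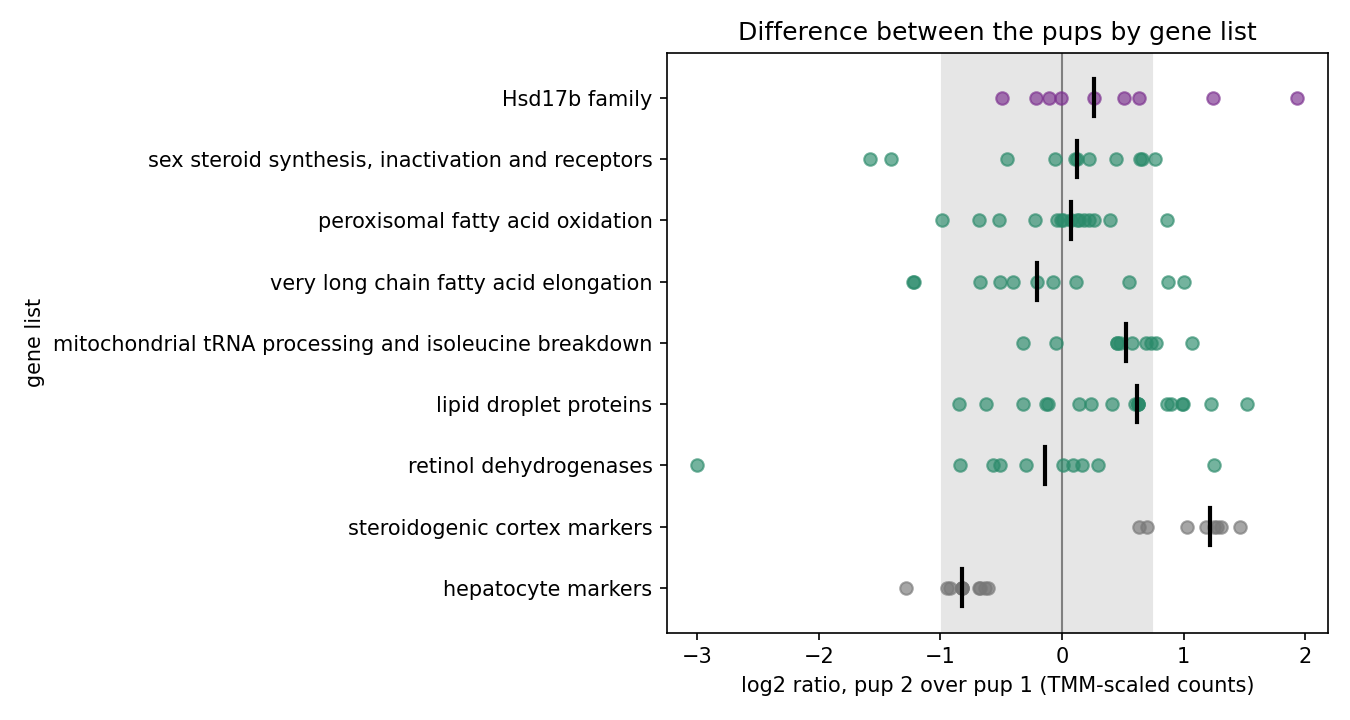
Log2 ratio of pup 2 over pup 1 from TMM-scaled counts for those genes of each list whose counts averaged 10 or more; points are genes, black bars medians, and the grey band spans the 10th to 90th percentile of all genes. The Hsd17b genes run from -0.50 to 1.93 with a median of 0.26, which lies between those of the cortex markers (1.22) and the hepatocyte markers (-0.82). The median over all genes (0.00) lies between them too, and the other marker lists are not drawn.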

How the data were processed

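Total RNA-seq of 2 newborn adrenal libraries, 1 per pup, was used, and grouping and pup numbers follow the labels. The authors deposited a gene and a transcript table per library with expected counts, TPM and FPKM, a posterior mean count, isoform percent, and the posterior standard deviation and TPM interval, here treated as a score. The notes deposited beside the tables state mm10 and GENCODE M4. For the quantifier, its version, the interval level and strand handling, nothing was given in the sources used here. Ensembl identifiers were looked up in GENCODE M21 (also mm10) for symbols and coordinates, with 42462 of 43346 genes found. Spike-in rows (0.0138% and 0.0025% of counts) and numbered rows (2.65e-05% and 9.59e-05%) were left out.

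Counts were rounded, scaled by TMM in edgeR 4.0.16 (R 4.3.3) and turned into log2 ratios with 0.5 added, where counts averaged 10 or more. Intervals are exact binomial (95%). Pups are single libraries, so no test was run. The calculation of ratios was also run on simulated counts whose spread was set beforehand, so that run is no check of the differences between these pups. The members and lists were chosen with earlier results of these data known. The rule for named genes takes all members, the 4 highest genes of each pathway list, its genes over 2-fold apart with a mean count of at least 100, and transcripts with at least 5% of a member. One gene that this rule takes is not reported here. Genes whose pattern is like a member's were not sought, since over 2 libraries any pair of genes correlates fully. Alternatives were DESeq2 1.42.0 size factors, spike-in scaling, posterior means, other minimums and pseudocounts, FPKM, TPM ratios and leaving out each pup. Figures used matplotlib 3.10.9.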

Additional observations from a re-analysis of the deposited data

How the results depend on the processing

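Of 9 member ratios, those under DESeq2 size factors, posterior mean counts and a pseudocount of 2 stayed within their counting intervals. By deposited TPM, Hsd17b4 (0.89), Hsd17b10 (0.38), Hsd17b11 (0.28), Hsd17b12 (0.61) and Hsd17b13 (-0.11) left theirs, with a median of 0.39 over all genes. Spike-in scaling put all 9 outside their intervals. The count of members over 2-fold apart went from 2 to 9 under spike-in scaling, where 96.6% of all genes were over 2-fold apart. It went to 0 at a mean count of at least 100, against 9.13% of genes, a minimum that leaves out Hsd17b6 and Hsd17b14. The median log2 ratio of the members (0.26) became 2.83 under spike-in scaling, 0.61 from deposited TPM, 0.38 with no minimum count and -0.058 at a mean count of at least 100. Spike-in scaling also turned the log2 ratios of Akr1c14 (1.16), Sult1e1 (0.98), Elovl4 (1.34) and Elovl7 (1.35), an alternative for the lists chosen after seeing the data. The count of members at TPM 1 in both pups (6) was 6 to 7 with 1 pup left out. Over 300 bases, all 6 members with a window stayed on the same side of the median CG count, which says nothing about their levels. No paired analysis was possible because there is only 1 group. Leaving out a pup gives no ratio. Counts under 100 limit Hsd17b1, Hsd17b6 and Hsd17b14, and Hsd17b3 was not detectable above 3 counts.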
